A study of Mus musculus with 15 samples.

Results

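The repair and checkpoint genes described here are 42 mouse genes of homologous recombination, the Fanconi anaemia pathway, the DNA damage checkpoint, mismatch repair and base excision chosen by name. They and the gene lists set beside them were picked with earlier results of these data known. Their counts beside the share of all genes are therefore descriptions. A probe of the array was named for 40 of them, on 98 probes; none was named for Xrcc2 or Eme1. A gene was kept when at least 1 of its probes was above background (detection p under 0.05) on at least 3 arrays. This left 36 of the 42 on all 15 arrays and 35 on the 12 pro-B arrays, against 10290 and 9687 genes of the whole array. Nbn, Mdc1, Fancb and Atr were below that limit, and Brca1 passed it through the DN3 arrays alone.

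The study asked which genes depend on Bcl11a, a zinc finger transcription factor of early B cells, in pro-B cells grown from mouse bone marrow. RNA was measured on Illumina bead arrays in 5 groups of 3, all from mice 6 to 8 weeks old. The labelled deficient arrays (EAAE+OHT, Bcl11a-deficient) and their controls (EAAE-OHT, wild type) came from cells of a mixed C57BL/6 and 129S5 background, as did the Bcl2 labelled deficient arrays (Bcl2+OHT, Bcl2-rescued Bcl11a-deficient) and the Bcl2 controls (Bcl2-OHT, Bcl2 overexpression, wild type). The labels give every sample, DN3 included, the same growth protocol, a culture of bone marrow cells for 10 days with IL-7, Flt3L and SCF. The DN3 arrays are labelled Bcl11bCKO/CKO, with the strain C57B7 and the tissue lymphocytes. OHT stands in the titles of both labelled deficient groups and of neither control group, so the agent and the deletion cannot be told apart. The labels do not say which promoter or cell type drives Bcl2 or the deletion.

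Homologous recombination mends a broken chromosome by copying the intact sister. Break ends are trimmed, BRCA2 and its partners prepare the bared strand for the exchange, and helicases and translocases carry it through. The Fanconi anaemia proteins unhook crosslinks between the strands and hand the break over to recombination, while ATM, ATR and their kinases hold the cell cycle. Early B cells divide fast and also cut their own immunoglobulin genes, and much of this machinery is made mainly by cells in S phase.

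Levels are log2 of background-corrected, quantile-normalised intensity, read from the gene's brightest kept probe. They can be compared between arrays for 1 gene but not between genes. Mean signals were 444.5 to 768.6 on 11 pro-B arrays with 14946 to 16422 probes detected, but control replicate 3 was dim, at 186.9 with 11473 detected. The DN3 arrays lay at 155.6 to 177.6 on a slide of their own. Of the pro-B arrays, most without Bcl2 were on slide 1 and most with Bcl2 on slide 2. Bcl2 and slide can thus be told apart only in part. Bcl11a itself went against the label without Bcl2. The brighter of its 2 detected probes gave levels of 11.34, 11.65 and 11.48 under the deficient label, against 9.57, 9.30 and 10.00 in the controls (1.87 ± 0.20 SE higher, limma adjusted p 0.0033), while a further probe read 9.02, 9.44 and 10.04 against 9.02, 9.23 and 10.99. With Bcl2 the log2 fold change of the brighter probe was -0.79 ± 0.20 (adjusted p 0.012). No source places these probes inside or outside the deleted part, so every direction below refers to labels. Of 11 pro-B markers with a named probe, 8 or 9 were detected on every array of each pro-B group, with Pax5 and Vpreb2 below background throughout. The DN3 arrays had 10 of 10 T cell markers detected. Of the 11 pro-B markers, 4 were detected on every DN3 array as well, while Vpreb1, Igll1 and Blnk were below background there.

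Without Bcl2, no repair or checkpoint gene was called different between the labelled deficient cells and their controls. None of the 35 genes passed in either direction at a Benjamini-Hochberg adjusted p under 0.05 in the limma fit over the 12 pro-B arrays, where 0.0103% of all genes passed as higher and 0.0206% as lower. The groups overlapped for all 35, a description only, since the share of all genes that overlapped was not counted. Their median log2 fold change was -0.11 beside 0.01 over all genes, with a range of -0.71 for Fancm to 0.69 for Fancg. The smallest p was that of Palb2, which bridges BRCA1 and BRCA2, with a log2 fold change of -0.58 ± 0.22 SE (adjusted p 0.76). Over all genes 298 were higher and 283 lower at an unadjusted p under 0.05 in that comparison.

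With Bcl2, 20 of the 35 genes were lower in the labelled deficient cells and none was higher, where 12.3% of all genes were called lower and 12.8% higher. The median log2 fold change was -1.01 beside 0.04 over all genes. In simulated data for the comparison with Bcl2, the same fit recovered 49 of 100 genes changed by 1 on the log2 scale and 92 of 100 changed by 2. Far fewer genes were changed there than were called in the data, and the noise was independent between arrays. These rates therefore do not carry over to the comparison itself. The 3 Bcl2 labelled deficient arrays lay below all 3 Bcl2 controls for 27 genes and above them for Parp1, and the arrays overlapped for Fancg, Fancl, Atm, Msh3, Msh6, Pms2 and Rad18. The share of all genes without overlap was not counted, so the 27 is a description only. The mean level over the 35 genes was 7.53, 7.64 and 7.56 on the Bcl2 labelled deficient arrays, against 8.87, 8.90 and 8.76 in their controls. The other 6 pro-B arrays lay between 8.77 and 9.03. In bulk RNA, fewer cells that make a transcript and less of it per cell cannot be told apart.

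**Figure D1:**
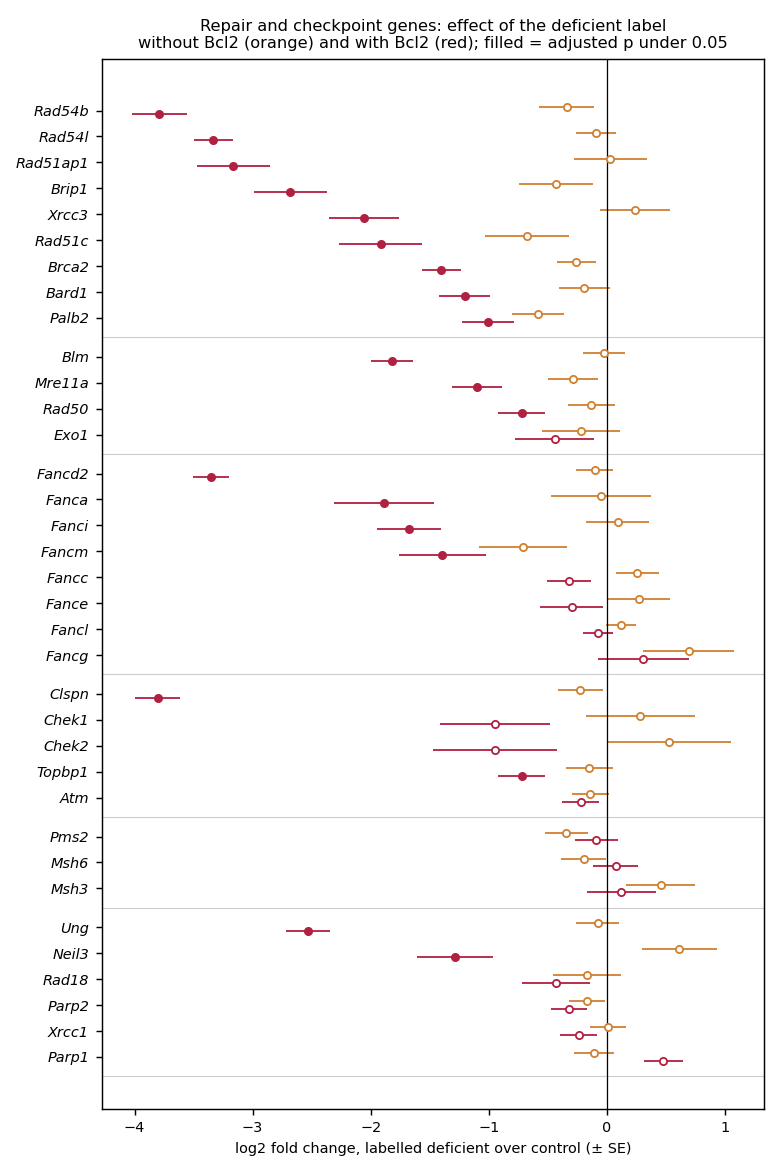
Log2 fold change of the labelled deficient over the control arrays for 35 repair and checkpoint genes, without Bcl2 (orange) and with Bcl2 (red), with bars of 1 SE and filled points for adjusted p under 0.05. Lines part the genes by role. Bard1, Fanca, Neil3, Exo1 and Chek1 were below background in the group that is low with Bcl2, so their red points are not exact values. The 20 filled points are all red and all lie below 0, between -3.80 for Clspn and -0.72 for Rad50 and Topbp1.

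The BRCA1 and BRCA2 complexes and the helpers of strand exchange had the lowest median of the 6 roles. All 9 tested genes of this role fell with Bcl2, with a median log2 fold change of -2.06, where 12.3% of all genes fell. Without Bcl2 none of the 9 passed and their median was -0.26. Brca1, the tenth with a named probe, was below background on 10 of the 12 pro-B arrays and was not tested there.

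Rad54l, a translocase that remodels DNA during strand exchange, stood at 11.11, 11.14 and 11.15 on the control arrays and 11.10, 10.91 and 11.12 on the labelled deficient arrays. On the Bcl2 controls it stood at 10.98, 10.86 and 10.40, and on the Bcl2 labelled deficient arrays at 7.35, 7.47 and 7.42. The last group alone was low, below every other pro-B array. The log2 fold change of Rad54l was -3.33 ± 0.17 SE with Bcl2 (adjusted p 1.7e-07) and -0.09 ± 0.17 without it.

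Rad54b, its relative with a like enzyme activity, read 11.23, 11.14 and 11.996 in the controls and 11.26, 10.79 and 11.30 in the labelled deficient cells. It read 11.24, 11.33 and 11.24 in the Bcl2 controls and 7.54, 7.63 and 7.28 in the Bcl2 labelled deficient cells. Again 3 arrays were low and 9 high, with no overlap. The log2 fold change with Bcl2 was -3.79 ± 0.23 (adjusted p 5.8e-07), and Rad54b was the 1 gene of the 20 called under every alternative processing that was run.

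Rad51ap1, which stimulates strand exchange, was at 9.67, 9.51 and 8.22 in the controls and 9.36, 9.005 and 9.14 in the labelled deficient cells. The Bcl2 controls gave 9.05, 8.86 and 8.98 and the Bcl2 labelled deficient arrays 5.66, 5.91 and 5.82, the first of these below background. The dim control array was the lowest of the other 9. The log2 fold change with Bcl2 was -3.16 ± 0.31 (adjusted p 2.6e-05).

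Brip1, the helicase that partners BRCA1, read 9.81, 9.82 and 11.15 in the controls and 9.88, 9.52 and 10.09 in the labelled deficient cells. With Bcl2 it read 9.43, 9.72 and 9.53 in the controls and 6.85, 6.95 and 6.85 in the labelled deficient cells. The low group was tight and stood apart from every other array (log2 fold change -2.68 ± 0.31, adjusted p 9.4e-05).

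Xrcc3, which acts in a complex with RAD51C, read 7.75, 7.67 and 7.09 in the Bcl2 controls and 5.10, 5.97 and 5.26 in the Bcl2 labelled deficient cells, where replicates 1 and 3 were below background. The controls without Bcl2 lay at 8.18, 7.98 and 7.23 and the labelled deficient cells at 8.19, 7.80 and 8.11, so all 9 other arrays were higher (with Bcl2, log2 fold change -2.06 ± 0.30, adjusted p 0.00047).

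Brca2, which prepares the trimmed strand for exchange, read 8.57, 8.60 and 8.84 in the controls and 8.51, 8.15 and 8.58 in the labelled deficient cells. With Bcl2 it read 8.42, 8.39 and 8.16 in the controls and 7.004, 6.98 and 6.79 in the labelled deficient cells. The groups with Bcl2 did not overlap, and the log2 fold change was -1.40 ± 0.17 (adjusted p 0.00011). Of the rest of this role, Rad51c fell with a log2 fold change of -1.92, Palb2 with -1.01, and Bard1, the partner of BRCA1, was below background on all 3 Bcl2 labelled deficient arrays and at least 1.77-fold lower there (adjusted p 0.0019).

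The start regions of these genes were read for the letters bound by E2F factors, which drive S phase genes in many cell types, because the members moved together. The letters searched were TTTCCCGC, TTTCGCGC, TTTGCCGC and TTTGGCGC on both strands, in windows of 250 bases before to 50 after the start (RefSeq, GRCm38.p6). They were in 10 of 36 members with a window (27.8%), against 4.79% of the genes tested on the pro-B arrays and 2.60% of all genes of the table. The share was 29.4% (5 of 17) among members called lower with Bcl2 and 28.6% (4 of 14) among those tested and not called. CCAAT was in 55.6% of members against 43.7% of tested genes, and TTTGAA, the core of the cell cycle homology region, in 5.56% against 14.6%. The E2F letters can overlap each other, as in Msh3, and can share a base with CCAAT. A match is a run of letters and not a binding site. The stretches below, each of 100 bases within the 250 before the start and written 5′ to 3′ on the gene's strand, show the letters in capitals for 3 genes that fell (Bard1, Brca2 and Topbp1) and for 2 that did not pass (Fancg and Msh3), so that both classes can be compared.
Bard1, chr1:71103123-71103222, minus strand: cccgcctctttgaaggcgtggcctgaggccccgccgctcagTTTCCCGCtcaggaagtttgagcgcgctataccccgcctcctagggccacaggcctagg
Brca2, chr5:150522407-150522506, plus strand: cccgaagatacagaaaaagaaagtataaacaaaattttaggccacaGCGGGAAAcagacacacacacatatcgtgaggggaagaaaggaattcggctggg
Topbp1, chr9:103305152-103305251, plus strand: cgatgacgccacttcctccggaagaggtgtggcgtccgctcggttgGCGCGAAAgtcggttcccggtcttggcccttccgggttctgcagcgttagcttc
Fancg, chr4:43010302-43010401, minus strand: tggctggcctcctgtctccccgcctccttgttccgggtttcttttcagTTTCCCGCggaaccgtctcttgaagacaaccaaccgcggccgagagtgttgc
Msh3, chr13:92355152-92355251, minus strand: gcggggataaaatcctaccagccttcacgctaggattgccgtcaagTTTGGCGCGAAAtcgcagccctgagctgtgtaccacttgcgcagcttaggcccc
The letters begin 209 bases before the start in Bard1, 168 in Brca2, 129 in Topbp1, 52 in Fancg and 202 in Msh3, and the runs in Bard1, Brca2 and Fancg are the same word read on either strand.

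**Figure D2:**
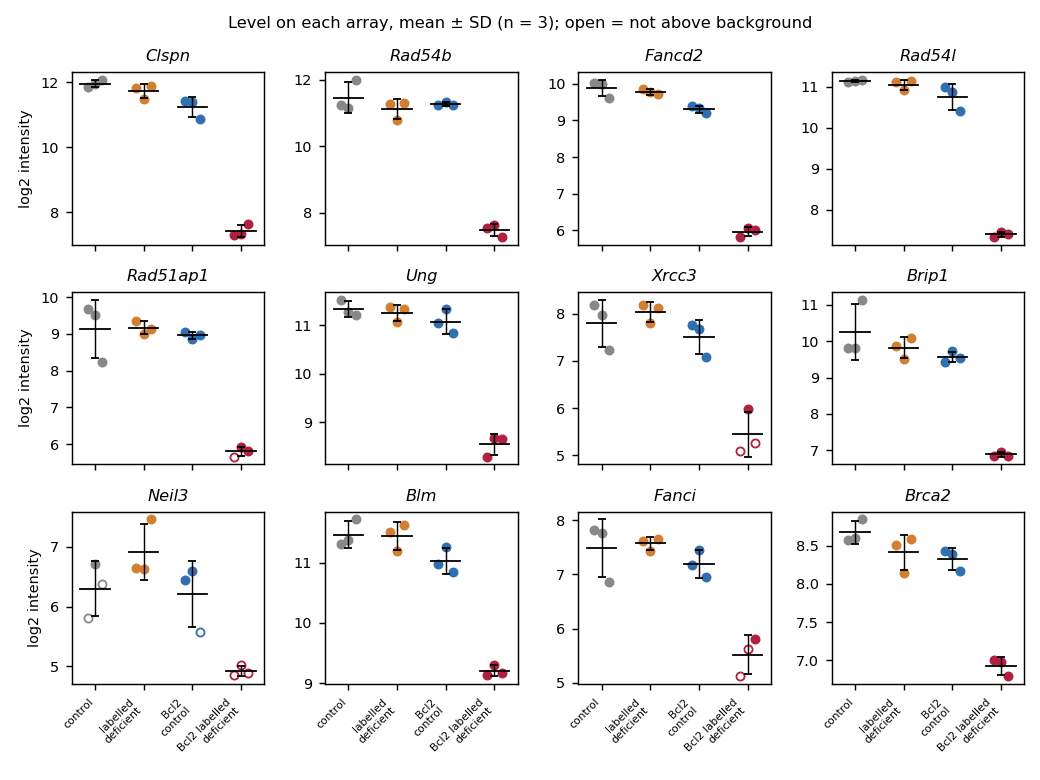
Log2 intensity on each of the 12 pro-B arrays for the 12 genes whose effect of the deficient label differed between the Bcl2 backgrounds; bars give the mean ± SD of 3 arrays and open points were not above background. The vertical axes differ between panels and do not start at 0. In every panel the 3 Bcl2 labelled deficient arrays are the lowest 3, a description only, since the genes were picked by that difference on these same arrays.

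Of the genes that sense breaks, trim their ends or resolve the exchange, 3 of 4 tested fell with Bcl2, beside 12.3% of all genes, and the fourth, Exo1, did not pass. Blm, the helicase that takes joined molecules apart, read 11.31, 11.37 and 11.72 in the controls and 11.51, 11.19 and 11.62 in the labelled deficient cells. With Bcl2 it read 10.98, 11.26 and 10.84 in the controls and 9.14, 9.31 and 9.17 in the labelled deficient cells, which were again the lowest 3 arrays (log2 fold change -1.82 ± 0.18, adjusted p 2.8e-05).

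Mre11a, the nuclease of the complex that first meets a break, read 9.96, 9.80 and 10.38 in the controls and 10.02, 9.54 and 9.72 in the labelled deficient cells. It read 9.75, 10.02 and 9.47 in the Bcl2 controls and 8.43, 8.80 and 8.71 in the Bcl2 labelled deficient cells (log2 fold change -1.10 ± 0.21, adjusted p 0.0028). Rad50, which tethers the ends in the same complex, fell too (log2 fold change -0.72 ± 0.20, adjusted p 0.020). That call was lost when replicate 1 or 3 of the Bcl2 labelled deficient group, or replicate 1 or 2 of the Bcl2 controls, was left out. Over all alternatives its adjusted p reached 0.37. Exo1, an exonuclease that lengthens the trimmed strand, was above background on 3 of the 12 arrays.

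In the Fanconi anaemia pathway, 4 of 8 tested genes fell with Bcl2, beside 12.3% of all genes. Both proteins of the pair that receives the pathway's ubiquitin mark were among them. Fancd2 read 10.02, 10.01 and 9.62 in the controls and 9.87, 9.77 and 9.71 in the labelled deficient cells. It read 9.39, 9.34 and 9.21 in the Bcl2 controls and 5.82, 6.06 and 6.00 in the Bcl2 labelled deficient cells. The groups without Bcl2 overlapped, the Bcl2 controls lay just below them, and the Bcl2 labelled deficient arrays lay far below all others. The log2 fold change was -3.35 ± 0.16 with Bcl2 (adjusted p 1.3e-07), the smallest p of the 35, and -0.10 ± 0.16 without it.

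Fanci read 7.81, 7.77 and 6.87 in the controls, 7.62, 7.44 and 7.66 in the labelled deficient cells and 7.18, 7.46 and 6.95 in the Bcl2 controls. The Bcl2 labelled deficient arrays read 5.12, 5.62 and 5.82, with replicates 1 and 2 below background (log2 fold change -1.68 ± 0.27, adjusted p 0.00089). Fanca, of the core complex that adds the mark, was below background on all 3 of those arrays and at least 2.37-fold lower than in the Bcl2 controls (adjusted p 0.0071). Fancm, the translocase that anchors the complex on DNA, had a log2 fold change of -1.39 ± 0.37 (adjusted p 0.017), and the call was lost without replicate 1 or 3 of the Bcl2 labelled deficient group or replicate 2 or 3 of the Bcl2 controls (adjusted p up to 0.11 over all alternatives).

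The other core genes did not pass. Fancl, the ligase of the core complex, had a log2 fold change of -0.07 ± 0.13, Fancc -0.32 ± 0.18, Fance -0.30 ± 0.26 and Fancg 0.31 ± 0.39. The Bcl2 labelled deficient arrays read 7.33, 7.28 and 7.39 for Fancl against 7.42, 7.50 and 7.30 in their controls, and these overlapped.

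Among the checkpoint genes, 2 of 5 tested fell with Bcl2, beside 12.3% of all genes. Clspn, the adaptor through which ATR activates CHK1 at stalled forks, read 11.85, 11.93 and 12.07 in the controls and 11.82, 11.48 and 11.88 in the labelled deficient cells. It read 11.41, 11.39 and 10.87 in the Bcl2 controls and 7.30, 7.33 and 7.63 in the Bcl2 labelled deficient cells. This was the largest difference of the 35 genes (log2 fold change -3.80 ± 0.19, adjusted p 1.7e-07), with no overlap. Clspn had 3 further probes that gave -3.66, -2.32 and -0.55, the last the dimmest of the 4 and not passing. The probe with -2.32 was below background on all 3 Bcl2 labelled deficient arrays, so that value is not exact.

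Topbp1, which activates ATR, read 8.37, 8.39 and 8.01 in the controls and 8.47, 8.08 and 7.77 in the labelled deficient cells. With Bcl2 it read 8.34, 8.00 and 8.32 in the controls and 7.52, 7.58 and 7.40 in the labelled deficient cells (log2 fold change -0.72 ± 0.20, adjusted p 0.020). The call was lost without replicate 1 or 3 of either Bcl2 group, with an adjusted p of up to 0.48 over all alternatives. The kinases did not pass. Atm had a log2 fold change of -0.22 ± 0.16 (adjusted p 0.36), Chek2 -0.95 ± 0.52 (adjusted p 0.23), and Chek1, below background on all 3 Bcl2 labelled deficient arrays, was at least 1.498-fold lower (adjusted p 0.17). The Bcl2 groups did not overlap for Chek1 or Chek2. Both passed as lower without control replicate 3 (adjusted p 0.0026 and 0.0023), which was below background for each, with array weights (0.0018 and 0.0014) and in the fit over the groups compared (0.0013 and 0.0055).

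The mismatch repair genes did not pass. Msh6, which helps to find base mispairs, had a log2 fold change of 0.07 ± 0.19 and lay at 12.52, 12.35 and 12.39 on the Bcl2 labelled deficient arrays against 12.40, 12.41 and 12.22. Pms2, which helps to cut the faulty strand, read 7.43, 7.01 and 7.54 in the controls, 6.95, 7.08 and 6.93 in the labelled deficient cells, 6.94, 7.23 and 7.34 in the Bcl2 controls and 6.87, 7.26 and 7.11 in the Bcl2 labelled deficient cells. Msh3, which helps to find longer loops, read 5.36, 6.13 and 4.91 in the controls, 5.93, 5.69 and 6.14 in the labelled deficient cells, 6.38, 6.32 and 5.74 in the Bcl2 controls and 6.45, 6.03 and 6.33 in the Bcl2 labelled deficient cells. The groups overlapped for all 3 genes with Bcl2, and Msh3 was near background, with 4 of the 12 arrays below it.

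Of the 6 genes of base excision, single-strand breaks and lesion bypass, both glycosylases fell with Bcl2, beside 12.3% of all genes, and the other 4 genes did not pass. Ung, which removes uracil from DNA, read 11.53, 11.28 and 11.21 in the controls and 11.37, 11.07 and 11.34 in the labelled deficient cells. It read 11.05, 11.34 and 10.84 in the Bcl2 controls and 8.30, 8.68 and 8.67 in the Bcl2 labelled deficient cells, with no overlap (log2 fold change -2.53 ± 0.18, adjusted p 2.4e-06). Ung also acts on the uracils made during antibody diversification.

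Neil3, which removes oxidised bases and unhooks some crosslinks, read 5.81, 6.71 and 6.38 in the controls and 6.65, 6.63 and 7.46 in the labelled deficient cells. It read 6.45, 6.60 and 5.58 in the Bcl2 controls and 4.85, 5.02 and 4.89 in the Bcl2 labelled deficient cells, all 3 below background. That made it at least 1.42-fold lower with Bcl2 (adjusted p 0.012), a call lost without replicate 1 or 2 of the Bcl2 controls (adjusted p up to 0.11 over all alternatives).

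Parp1, the main sensor of nicks, was the 1 gene that lay above all Bcl2 controls. It read 13.07, 12.93 and 13.45 in the controls and 13.02, 12.99 and 13.10 in the labelled deficient cells, 13.28, 13.03 and 13.29 in the Bcl2 controls, and 13.52, 13.76 and 13.76 in the Bcl2 labelled deficient cells. The log2 fold change with Bcl2 was 0.48 ± 0.17, with an adjusted p of 0.058 that passed without control replicate 3 and under several other settings. A further Parp1 probe read 12.97, 13.11 and 13.08 in the Bcl2 labelled deficient cells against 12.49, 12.20 and 12.28 in the Bcl2 controls. The dimmest probe read 9.17, 8.73 and 9.32 against 9.03, 8.70 and 8.89, which overlapped. Xrcc1, the scaffold of single-strand break repair, had -0.24 ± 0.16, Parp2 -0.32 ± 0.15 and Rad18, which marks PCNA for lesion bypass, -0.43 ± 0.29.

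The difference between the effects with and without Bcl2 was tested as an interaction in the same fit. It passed for 12 of the 35 genes, all with the lower value with Bcl2, where 6.17% of all genes passed as lower and 4.64% as higher. The median over the 35 was -0.82 beside 0.04 over all genes. The 12 were Clspn (-3.58 ± 0.27, adjusted p 1.5e-05), Rad54b, Fancd2 (-3.25 ± 0.22, adjusted p 8.5e-06), Rad54l, Rad51ap1, Ung, Xrcc3, Brip1, Neil3, Blm, Fanci and Brca2 (-1.14 ± 0.23, adjusted p 0.0095). For the other 8 genes that fell with Bcl2 the difference did not pass, with Bard1 the nearest (adjusted p 0.057), so these are not shown to respond in 1 background only. Neil3, Bard1 and Fanca were below background on all 3 Bcl2 labelled deficient arrays, so their fitted differences are not exact values. Without control replicate 3 the interaction passed for 18 genes, all lower, where 1033 of 9687 genes passed as lower and 985 as higher. The interaction and the comparison with Bcl2 share arrays and are not independent. Both effects were also fitted with the replicate number as a block, since the same-numbered labelled deficient and control arrays deviated together: 20 genes were lower with Bcl2 and 13 in the interaction, where Fanca passed as well (adjusted p 0.0026).

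In the control state, few of these genes differed between the arrays with and without Bcl2. Against the controls without Bcl2, 3 of 35 were lower in the Bcl2 controls and 1 was higher, where 3.85% and 4.28% of all genes passed, and the median log2 fold change was -0.21. Clspn (-0.73 ± 0.19, adjusted p 0.038), Fancd2 (-0.57 ± 0.16, adjusted p 0.045) and Rad18 (-1.08 ± 0.29, adjusted p 0.041) were lower. Xrcc1 was higher, with 11.42, 11.44 and 11.58 in the Bcl2 controls and 10.87, 10.99 and 10.49 in the controls (0.70 ± 0.16, adjusted p 0.019). No gene of these 4 kept its call under every alternative, and scaling each array by its median gave 0 calls in either direction, with the value for Fancd2 at 0.09. Pairing the replicates left 1 lower and 0 higher.

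In the labelled deficient state, 22 of 35 were lower with Bcl2 than without it and 2 were higher, where 18.2% of all genes passed as lower and 21.3% as higher. The median was -1.11. This comparison holds the same Bcl2 labelled deficient arrays as the one above and is given for its values. Clspn had a log2 fold change of -4.31 ± 0.19 and Fancd2 of -3.82 ± 0.16. Bard1 was at least 2.02-fold lower, Chek1 at least 2.18-fold, Neil3 at least 2.31-fold and Fanca at least 2.61-fold. Rad18 (-1.34 ± 0.29), Parp2 (-0.60 ± 0.15), Fancl (-0.40 ± 0.13) and Chek1 passed here and not against the Bcl2 controls. Parp1 (0.64 ± 0.17, adjusted p 0.0099) and Xrcc1 (0.45 ± 0.16, adjusted p 0.037) were higher. A further Parp1 probe was higher too, but the dimmest read 9.17, 8.73 and 9.32 with Bcl2 against 9.20, 9.10 and 8.98 without it. The Parp1 call was lost with the mean of the kept probes, and that of Xrcc1 under 13 of 25 alternatives. Xrcc1 read 10.75, 10.75 and 10.88 in the labelled deficient cells and 11.20, 11.21 and 11.31 with Bcl2, so both Bcl2 groups lay above both groups without it.

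Other repair genes were counted from lists of the remaining pathways, beside 12.3% of all genes called lower and 12.8% called higher. The counts for end joining, nucleotide excision and lesion bypass lay near those shares. Of 31 other recombination, Fanconi and checkpoint genes tested, 9 fell and 1 rose with Bcl2 (median -0.03). Those with the smallest p were Tipin, which steadies the fork (-2.001 ± 0.17, adjusted p 9.4e-06), and H2ax, the histone that marks breaks (-2.84 ± 0.25, adjusted p 1.3e-05). Of 14 other base excision genes 5 fell and 1 rose, led by Lig1 (-2.93 ± 0.22) and Fen1 (-1.60 ± 0.18), which also join and trim fragments during replication. Of 8 end joining genes 1 fell and 1 rose, Lig3 (-0.56 ± 0.17) and Xrcc6, a subunit of Ku (1.04 ± 0.21, adjusted p 0.0034). Of 16 nucleotide excision genes 2 fell and 1 rose, with Ercc5 at 0.86 ± 0.23 and Gtf2h4 at -0.84 ± 0.26. Of 11 lesion bypass genes 2 fell, Rfc1 (-1.06 ± 0.16) and Polh (-0.91 ± 0.19), and 1 rose. Of 2 other mismatch repair genes tested, Msh5 fell (-1.12 ± 0.23) and Mlh3 did not pass (-0.16 ± 0.23).

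DNA replication genes moved with the repair genes. With Bcl2, 29 of 31 tested fell and none rose, beside 12.3% and 12.8% of all genes, with a median of -1.94, led by Mcm10 (-3.95 ± 0.18, adjusted p 1.3e-07) and Cdc45 (-3.13 ± 0.16, adjusted p 2.3e-07), which help set the replicative helicase going at origins. Without Bcl2 0 of the 31 passed (median -0.14), and the interaction passed as lower for 26. Their mean level was 8.52, 8.68 and 8.64 on the Bcl2 labelled deficient arrays against 10.66, 10.73 and 10.54 in the Bcl2 controls and 10.81 to 11.13 on the other pro-B arrays. The part of replication in the fall of the repair genes was not tested.

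**Figure D3:**
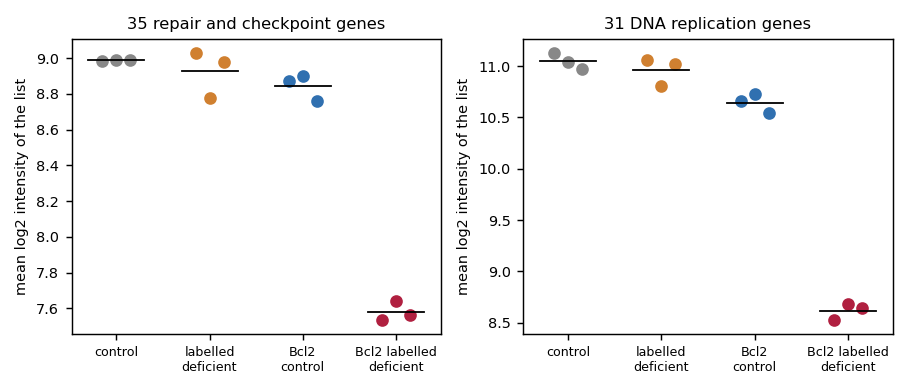
Mean log2 intensity over 35 repair and checkpoint genes (left) and 31 DNA replication genes (right) on each pro-B array, with a line at the group mean. The axes do not start at 0 and differ between panels. In both panels the 3 Bcl2 labelled deficient arrays lie below all other arrays, at 7.53 to 7.64 and at 8.52 to 8.68.

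**Figure D4:**
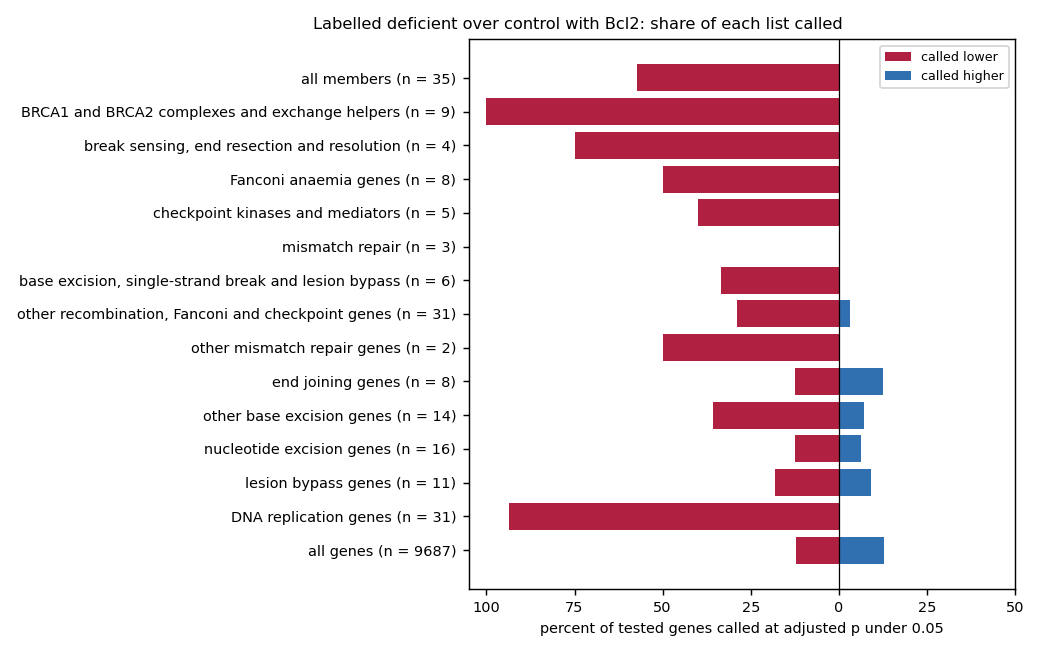
Percent of the tested genes of each list called lower (red, to the left) or higher (blue, to the right) in the labelled deficient over the control arrays with Bcl2, with all genes at the foot. Replication genes and the BRCA complexes and exchange helpers have the longest red bars, and all genes stand at 12.3% lower and 12.8% higher.

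Markers of other cell types also differed between the Bcl2 groups. The summed intensity of the dendritic cell list, with 6 of 9 genes kept, was 18190.5 to 24012.1 on the Bcl2 labelled deficient arrays and 3510.2 to 5463 in the Bcl2 controls, with Itgax, Flt3 and Batf3 below background in both. That of neutrophils and monocytes, 8 of 10 kept, was 2110.7 to 3939.1 against 482 to 717.6, with Mpo, S100a8, S100a9 and Itgam below background in both. The erythroid sum, 4 of 7 kept, was 488.5 to 624 against 4490.2 to 7800.6, with Hba-a1, Klf1 and Alas2 below background in both. The pro-B sum was 103777.3 to 108726.2 against 82853.1 to 88516.3. Without Bcl2 the dendritic cell sum was 14461.1 to 28056.2 in the labelled deficient cells and 6053.8 to 22300.6 in the controls. The neutrophil and monocyte sum was 8456 to 14384.8 and 8344.4 to 15412.8 there, and the erythroid sum 631.6 to 867.2 and 1073.6 to 1620. By these sums the Bcl2 controls were the lowest pro-B group for the dendritic cell list and the neutrophil and monocyte list, and the highest for the erythroid list. The T cell, basophil and mast cell, and stromal and endothelial sums were also higher in the Bcl2 labelled deficient arrays than in the Bcl2 controls. The NK and innate lymphoid sum was lower. A sum describes its list and does not show that such cells were present. The part of other cell types in the result was not tested.

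The DN3 arrays were compared with the control pro-B arrays in a fit over 15 arrays. Of 36 genes, 13 were lower and 2 counted as higher in DN3, where 24.3% and 20.9% of all genes passed, and the median log2 fold change was -0.30 beside -0.07 over all genes. Fancd2 was lower with 8.70, 8.70 and 8.43 against 9.76, 9.75 and 9.37 (-1.02 ± 0.15, adjusted p 8.8e-05). Its Bcl2 labelled deficient arrays read 5.65, 5.88 and 5.82 on this scale, far below both. Palb2 (-1.20 ± 0.25), Rad51ap1 (-1.27 ± 0.33), Xrcc3 (-1.25 ± 0.31), Fancm (-1.23 ± 0.34) and Fanci (-1.16 ± 0.30) were the other genes lower by more than 1. Of 31 replication genes 13 were lower and 1 higher.

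The 2 genes counted as higher were Pms2 and Brca1. Brca1, the scaffold of the BRCA1 complexes, read 6.93, 6.60 and 6.05 in DN3 and 5.22, 5.09 and 5.62 in the controls, all 3 below background. It entered the fit through the DN3 arrays alone, so its place among the higher genes follows from the detection filter and is given as a description. Pms2 was higher and read 7.96, 7.86 and 8.09 in DN3 and 7.20, 6.79 and 7.30 in the controls, with no overlap (0.87 ± 0.17, adjusted p 0.00091). Cell type, genotype, strain, tissue and slide all differ between these groups and cannot be told apart, and scaling each array by its median, which moved the median of all genes to -0.73, gave 21 lower and 0 higher.

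Parp2, which helps to sense single-strand breaks, had probes that read differently, and it was singled out after its values were seen. Its brightest probe, used above, read 11.71, 11.90 and 11.77 in the Bcl2 controls against 12.24, 12.06 and 12.41 in the controls (-0.44 ± 0.16). A dimmer probe read 6.92, 6.93 and 6.64 in the Bcl2 controls and 5.97, 6.78 and 6.45 in the Bcl2 labelled deficient cells. Without Bcl2 that probe read 9.85, 9.74 and 9.06 in the controls and 10.12, 9.50 and 9.78 in the labelled deficient cells. All 6 Bcl2 arrays were thus below all 6 others, whatever the Bcl11a label, with a log2 fold change of -2.72 ± 0.27 in the control state (limma adjusted p over all probes 0.00014). The third probe was dim throughout and gave -0.25 ± 0.17. Whether the dimmer probe meets the same transcript sequence in both backgrounds was not tested, so the value is that of the probe and not of the gene.

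**Figure D5:**
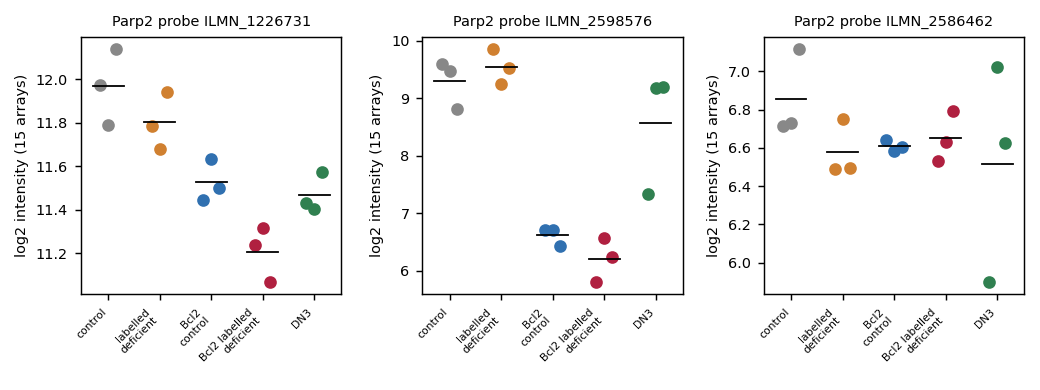
Log2 intensity of the 3 Parp2 probes on each of 15 arrays, normalised together, with a line at the group mean. The axes differ between panels and do not start at 0. In the middle panel the 6 Bcl2 arrays lie at 5.79 to 6.71, below the 6 other pro-B arrays, and DN3 replicate 1 lies below the other DN3 arrays.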

How the data were processed

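Total RNA of 15 samples was labelled with biotin and hybridised to Illumina bead arrays, per the labels' protocols. No source used here names the scanner software. The deposited table holds a linear intensity per probe (45263), not normalised between arrays, and a detection fraction that is near 1 for bright probes. Its complement served as detection p. The values show a background already subtracted on the pro-B arrays and not on the DN3 arrays. The matrix that the authors deposited beside it gives a score that equals the intensity centred and scaled by probe to within 5e-06, and was used as an alternative only.

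Intensities were corrected and quantile normalised with neqc (offset 16) in limma 3.58.1 and R 4.3.3, which also takes log2. The 12 pro-B arrays were normalised by themselves and all 15 together for DN3. Symbols came from the given probe table (34874 probes with 1 symbol, 18 with several, 10371 without). A gene was read from its brightest probe among those with detection p under 0.05 on at least 3 arrays. Group means were compared with lmFit and eBayes over all arrays of the set, with Benjamini-Hochberg adjustment over all genes and a threshold of 0.05. Errors are SE with n = 3 arrays a group. A gene below background on every array of 1 group has a bound, the bright group's mean against, per array, the lowest detected signal or the probe's own if higher. Cells came from 3 batches of culture, per the series text, and the number of arrays limits the precision. Simulated data tested the fit (3 false calls among 9687 genes). They had far fewer changed genes than the comparison with Bcl2 had calls, and no shared deviation between arrays, so that count does not carry over to the data.

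The members and lists were chosen with earlier results of these data known. Genes were given array by array by this rule: the 2 with the smallest p with Bcl2 in each role, those passing in the interaction, and those passing against the main direction; of other lists, the 2 with the smallest p. Same-numbered labelled deficient and control arrays deviated together (correlations 0.307 to 0.354 without Bcl2 and 0.229 to 0.390 with it), so replicate pairs were tried as a block; for Bcl2 against no Bcl2 the correlations ran from -0.126 to 0.322. Alternatives were other background, offset, filter, scaling, probe and weight settings, slides, blocks and leaving out each array. The promoter table has no window for Rad54b, Rad50, Nbn, Xrcc2, Exo1 or Fancd2.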

Additional observations from a re-analysis of the deposited data

Results flagged for a closer look

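For 12 genes the effect of the deficient label differed between the backgrounds with and without Bcl2, by the interaction term of the limma fit over 12 pro-B arrays. The difference of the log2 fold changes, with Bcl2 minus without, was -3.58 for Clspn, -3.45 for Rad54b, -3.25 for Fancd2, -3.24 for Rad54l and -3.19 for Rad51ap1. It was -2.45 for Ung, -2.30 for Xrcc3, -2.25 for Brip1, -1.90 for Neil3, -1.79 for Blm, -1.77 for Fanci and -1.14 for Brca2. In all 12 the 3 Bcl2 labelled deficient arrays lay below all 9 other pro-B arrays. The genes were picked by the interaction on these same arrays, so this order is a description and no further support. The adjusted p ran from 8.5e-06 for Fancd2 to 0.020 for Neil3. Neil3 was below background on all 3 Bcl2 labelled deficient arrays, so its value is not exact, and its call was lost when any 1 of 5 single arrays was left out. Bcl11a went against its label without Bcl2, and its part in these differences was not tested.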

How the results depend on the processing

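Of the 20 genes lower with Bcl2, 1 (Rad54b) was called under all 25 alternatives, 10 under all but 1 and 9 were lost under at least 2. The series matrix score, on a linear scale, left 2 lower, and the 1 against 1 arrays within slide 1 left 11. Parp1 made 1 higher call with array weights, with the filter of detection p under 0.01 on at least 6 arrays, with an offset of 50, without background correction, with the fit over the groups compared, with the slide block and within slide 2. Leaving out 1 array gave 17 to 22 lower and 0 to 1 higher, the 1 without control replicate 3. In the interaction, leaving out 1 array gave 11 to 18 lower and 0 higher, the score 0 lower, slide 1 5 lower and slide 2 1 higher. Without Bcl2 every array left out gave 0. Slide 2 holds 1 array of each group without Bcl2, among them the dim control replicate 3. Without Bcl2 the fit within slide 2 thus set 1 array against 1, and the result of 0 calls did not hold there. Its log2 fold changes went both ways, with 2.11 for Chek2, 1.83 for Fancg, -1.64 for Rad51c and -1.59 for Fancm. Calls that rest on 1 array a group are not counted here.

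For Bcl2 in control cells (1 higher, 3 lower), median scaling, the fit over the groups compared, the score and slide 1 gave 0 and 0. The replicate block gave 0 higher and 1 lower, array weights 5 lower, no filter 1 lower, slide 2 7 higher and 8 lower, and leaving out 1 array 0 to 2 higher and 0 to 5 lower, with the lower count moved by each of the 12 arrays. Fancd2 turned to 0.0915 under median scaling. For Bcl2 in labelled deficient cells (2 higher, 22 lower), the higher count was 1 with the mean of the kept probes or the replicate block, and 0 with median scaling, the score, slide 1 or slide 2. Leaving out 1 array gave 1 to 2 higher and 18 to 24 lower. For DN3 (2 higher, 13 lower), array weights gave 5 higher, the stricter filter 1 higher, median scaling 0 higher and 21 lower, and the fit over the groups compared 4 lower. Leaving out 1 array gave 2 to 5 higher, the 5 without control replicate 3, and 9 to 13 lower. Pms2 turned to -0.15 on the score.

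Median scaling moved the median of all genes to 0.55 without Bcl2, 0.11 with Bcl2, -0.39 in the interaction, 0.50 for Bcl2 in control cells, 0.08 in labelled deficient cells and -0.73 for DN3. The share of higher among all calls went from 33.3 to 100%, 51 to 62.6%, 42.9 to 25.8%, 52.7 to 91.6%, 54 to 61.4% and 46.2 to 12% in that order. The members' median turned to 0.51 without Bcl2 under median scaling and 0.51 on the score, and for Bcl2 in control cells to 0.36 and 0.31, so these medians follow the scaling. The replicate block, which the correlations warrant for the deficient label, gave 0 higher and 20 lower with Bcl2, 13 lower in the interaction and 0 without Bcl2, and changed no count by over 1.5 times there. The cause of the other changes was not tested. Dim probes limit Exo1, Chek1, Neil3, Fanca and Bard1, which were below background on all Bcl2 labelled deficient arrays.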
